A study of Mus musculus with 67 samples.

Results

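The retinal pigment epithelium (RPE) genes described here were those that stood low at 1d and had returned by 3d. They were chosen from the RPE values themselves. On group means of log2(CPM + 0.5), 1d minus NB had to be at most -1 and 3d minus 1d at least 1, with a mean of at least 5 CPM (read counts scaled to library size) in NB. The rule found 145 of the 16714 genes of the RPE table. Of these, 18 were left out by name, among them the retinoid genes Rpe65, Lrat and Stra6, the uptake receptor Mertk and 3 type IV collagen genes, since the rule excluded a fixed list and all symbols starting with Col or Kcn. The members were the remaining 127 genes, and 117 of them also had values in the retina table.

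All RNA libraries used here came from photosensitive C57BL/6J mice lacking both Abca4 and Rdh8 (Abca4-/- Rdh8-/-). Every RNA group carried both deletions and none was wild type, so the members were followed over time in 1 genotype. RNA of the deleted genes was still counted, with means in NB of 240 CPM for Abca4 and 2.86 for Rdh8 in RPE and 797 and 40.4 in retina, and counts per gene do not show from which exons it came. RNA was compared between NB, 6h, 1d and 3d in RPE (n = 5, 3, 4 and 4) and in retina (n = 6, 3, 4 and 4), and each library held both eyes of 1 mouse. The labels do not spell out NB, which served as the reference, nor the event from which the times count, and the ages of the mice are not given in the sources used here.

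The RPE is a pigmented epithelium that lies against the outer segments of the photoreceptors. It turns all-trans retinoid back into the 11-cis form used by the visual pigments, moves ions, acid, water and nutrients between the choroidal blood and the retina, engulfs shed outer segment tips and secretes growth factors on either face. Abca4 and Rdh8 clear all-trans retinal inside photoreceptors, and mice lacking both are known to be injured by bright light.

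The RPE libraries carried the label's markers and RNA of surface epithelium. All 25 RPE markers were detected, and their summed level was 21053 to 34761 CPM in NB, 13991 to 19935 at 6h, 13731 to 17840 at 1d and 22852 to 40803 at 3d. This sum includes the members Rlbp1, Rrh and Slc6a13 and genes that met the rule but were left out by name. The keratin gene Krt5, which marks that epithelium, averaged 10250.3 ± 3169.7 CPM in NB (SD, n = 5). Recovered depth was 23.1 to 26.8 M reads in the 6h libraries and 1 NB library (NB A1) and 11.5 to 14.4 M in the other 12, so that 6h and depth were largely confounded. In bulk RNA, fewer cells of a type and less RNA per cell cannot be told apart, and this holds for every RPE value that follows.

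Across the 127 members the mean level in NB ran from 5.45 to 1775 CPM with a median of 41.7, and 33 members were at 100 CPM or more. The median member stood at 65.1% of its NB mean at 6h, 40.2% at 1d and 98.3% at 3d. On the log2 scale the median difference from NB was -0.59 at 6h, -1.27 at 1d and -0.02 at 3d. The 1d and 3d steps are what the rule selected and are given as a description. The rule set no limit on 3d minus NB directly, yet its steps pull that difference towards 0, and 94 of 127 members ended within 0.25 of NB and 117 within 0.5.

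The libraries of a group moved together across the members. Relative to NB, the median member stood at -1.13, -1.03, -1.51 and -1.60 in the 4 1d libraries and at -0.36, 0.43, -0.15 and -0.08 in the 4 3d libraries. It stood at 0.55 in NB A1, 0.04 in NB B1 and NB B2, -0.45 in NB B3 and -0.18 in NB B4, and at -0.87, -0.45 and -0.42 at 6h. Every 1d library thus lay below every NB library in this summary, while NB A1 and 3d 2 stood high and NB B3 low. All 1d libraries were below all NB libraries for 112 members (5.27% of all tested genes), and all 3d libraries were above all 1d libraries for 121 (10.6% of all tested genes). The rule chose the members on these same libraries, so shares above those of all genes follow from the choice.

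Other gene lists moved with the members in part. The 22 RPE markers that are not members had library medians of -1.01 to -0.52 at 1d and -0.20 to 0.64 at 3d. Among these 22, Rpe65, Lrat, Stra6 and Sostdc1 met the rule and were left out only by name. That list was thus partly chosen by the values it shows. The 27 pigment and melanosome genes, none of them a member, had -0.71 to -0.03 and -0.03 to 0.51. Surface epithelium genes (Krt5, Krt14, Krt12, Aldh3a1 and Trp63, split from a longer list after their values were seen) summed to 10316 to 26746 CPM in NB, 21154 to 48668 at 1d and 11190 to 29452 at 3d. They were lowest in NB A1 within NB and in 3d 2 within 3d, where the members were highest, and highest in NB B3 and 1d 4, where the members were lowest. The 2 1d libraries with the least surface epithelium, 1d 1 at 21474 and 1d 3 at 21154 CPM, lay above every NB library except NB B3. The median 1d minus NB of the members from those libraries alone, computed after seeing the data, was -1.31. The part of surface epithelium in the 1d values was not tested. Rod markers summed to 4248 to 6842 CPM in NB and 3382 to 9227 at 1d, and leukocyte markers, 9 of 10 of which were detected, to 350 to 379 in NB, 186 to 246 at 1d and 352 to 437 at 3d. Csf1r, which met the rule and was left out by name, supplied 214 CPM of the mean leukocyte sum of 365 in NB. The median log2 difference of the leukocyte markers from NB was only -0.19 at 1d.

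**Figure D1:**
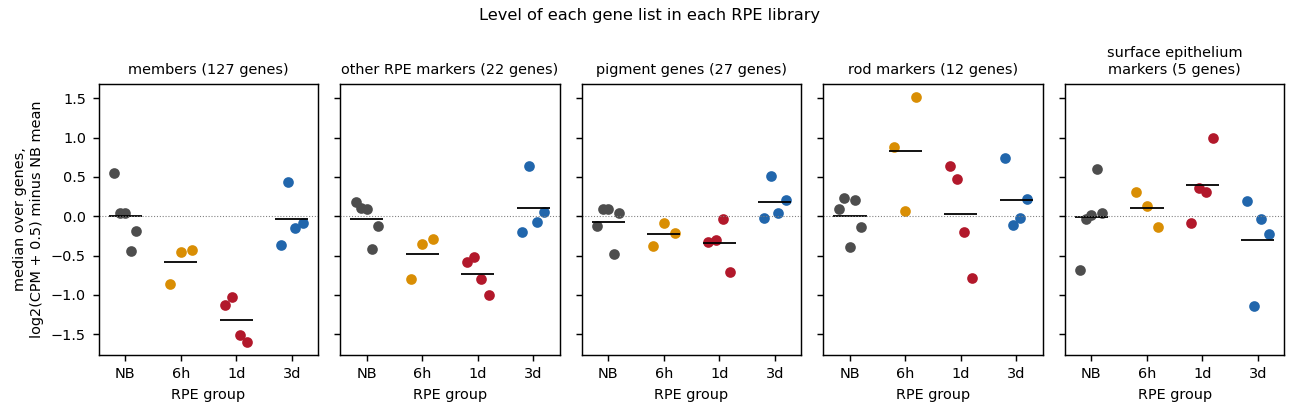
Median over the genes of each list of log2(CPM + 0.5) minus the NB mean (vertical axis) in each RPE library (1 point a library, bars the group mean) by group. The members lie between -1.60 and -1.03 at 1d, below the other RPE markers (-1.01 to -0.52) and the pigment genes (-0.71 to -0.03), while surface epithelium markers are highest in 1d 4.

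The promoters of 4 members are shown, from genes of the acid, zinc, amino acid and retinoid functions described next. They are the RefSeq sequences of GRCm38.p6 from 250 bases before to 50 bases after the first listed start, in the direction of the gene. Capitals mark TAATCC or its reverse complement GGATTA, the core of the site bound by the OTX and CRX homeodomain factors, in the first 3. These are among the 8 member promoters that held it, and do not stand for the members at large. Slc4a5, Slc4a4, Slc7a10 and Rrh, of like functions, held no such match and are not shown. Rlbp1 held no such match. Its capitals mark TTTATA, the reverse complement of the TATA box letters TATAAA, which begins 78 bases before the start.
Car14 (chr3:95904636-95904935, minus strand): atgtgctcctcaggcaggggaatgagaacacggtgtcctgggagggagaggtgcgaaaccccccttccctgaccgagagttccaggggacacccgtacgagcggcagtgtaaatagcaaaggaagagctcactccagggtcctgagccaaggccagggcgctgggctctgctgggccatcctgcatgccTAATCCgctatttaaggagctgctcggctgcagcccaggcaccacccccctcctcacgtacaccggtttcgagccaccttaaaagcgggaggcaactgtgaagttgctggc
Slc39a12 (chr2:14388148-14388447, plus strand): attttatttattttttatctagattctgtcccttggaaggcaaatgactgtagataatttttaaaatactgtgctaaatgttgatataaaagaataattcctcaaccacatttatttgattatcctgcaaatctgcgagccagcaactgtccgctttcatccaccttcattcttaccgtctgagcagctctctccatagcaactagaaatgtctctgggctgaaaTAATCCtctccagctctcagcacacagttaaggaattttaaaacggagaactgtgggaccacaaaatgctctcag
Slc6a13 (chr6:121300038-121300337, plus strand): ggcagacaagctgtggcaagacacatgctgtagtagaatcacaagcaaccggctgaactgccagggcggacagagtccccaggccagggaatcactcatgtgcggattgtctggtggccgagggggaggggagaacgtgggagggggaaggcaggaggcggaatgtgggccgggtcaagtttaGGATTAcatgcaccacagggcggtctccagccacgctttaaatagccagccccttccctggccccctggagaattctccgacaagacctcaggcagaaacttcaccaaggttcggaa
Rlbp1 (chr7:79386978-79387277, minus strand): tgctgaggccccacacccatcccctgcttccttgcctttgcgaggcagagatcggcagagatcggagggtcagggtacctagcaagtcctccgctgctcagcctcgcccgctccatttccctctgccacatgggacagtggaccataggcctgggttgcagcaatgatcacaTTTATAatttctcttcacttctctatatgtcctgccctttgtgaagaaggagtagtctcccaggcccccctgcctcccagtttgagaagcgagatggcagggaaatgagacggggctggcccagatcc
A RefSeq promoter was matched by symbol for 95 of the 127 members. TAATCC, searched on both strands, was present in 8 of the 95 (8.42%), against 7.16% of all 27025 promoters in the table and 5.89% of the 11667 promoters of genes in the RPE table. The E-box CACGTG, its own reverse complement, was present in 9.47% of member promoters and 9.67% of those of the RPE table. TATAAA was present in 17.9%, against 7.65% in the RPE table and 14.2% of all promoters, and the GC box GGGCGG in 45.3%, against 62.3% and 35.9%. Each motif was counted alone, whether or not it overlapped another. A match describes letters in this window and is no evidence of a bound site.

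Of 21 retinoid genes at 5 CPM or more in NB, Rlbp1 and Rrh were members (9.52%, against 1.05% of all 12150 genes at that level). That list does not hold Rpe65, Lrat and Stra6, which the rule excluded by name. Rlbp1, whose product carries 11-cis retinoids in RPE and Muller glia, had the highest NB level of all members. It read 2387, 1869, 1832, 1344 and 1445 CPM in the 5 NB libraries, 862, 1154 and 1173 at 6h, 775, 915, 569 and 828 at 1d and 1469, 2614, 1689 and 1697 at 3d. The 1d values lay below all NB and 3d values, and 3 of the 4 3d values lay inside the NB range with 3d 2 above it. Rrh, which codes for peropsin, a retinal-binding opsin of the RPE, averaged 289 ± 71.9 CPM in NB, 169 ± 38.1 at 6h, 126 ± 24.9 at 1d and 270.4 ± 74.5 at 3d. Errors of these and the following CPM means are SD over the libraries of the group.

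Slc4a5, Car14 and Slc4a4 act in acid and bicarbonate transport and were put together here after their values were seen. Slc4a5, a sodium bicarbonate cotransporter, read 1069, 897, 923, 641 and 833 CPM in NB, 441, 625 and 587 at 6h, 436, 491, 420.2 and 274 at 1d and 740.3, 1425, 909 and 966 at 3d. Car14, a carbonic anhydrase on the cell surface, read 733, 662, 667, 458 and 518 CPM in NB, 231, 338 and 329 at 6h, 308, 356, 211 and 253 at 1d and 436, 789.7, 516 and 552 at 3d. For both genes no 6h or 1d library reached the lowest NB library, and Car14 was nearly as low at 6h as at 1d. Slc4a4, the second bicarbonate cotransporter among the members, was less separated, at 128 ± 48.9 CPM in NB, 108 ± 36.1 at 6h, 63.6 ± 24.3 at 1d and 144 ± 41.6 at 3d.

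Solute carriers gave 8 members of 229 measured at 5 CPM or more in NB (3.49%). Slc6a13, which carries GABA and taurine, read 377, 324, 312, 264 and 309 CPM in NB, 186, 253 and 229 at 6h, 138, 141, 136 and 95.96 at 1d and 296, 452, 271 and 323 at 3d. Its levels stepped down from NB through 6h to 1d with no overlap, and the 3d libraries overlapped those of NB. The enzyme genes of the same amino acids, Csad for taurine synthesis and Abat for GABA breakdown, were chosen after their values were seen and averaged 171 ± 43.7 and 181 ± 59.4 CPM in NB and 75.5 ± 11.2 and 78.05 ± 15.4 at 1d. Slco1a4, an organic anion transporter, fell to 28.9% of its NB mean at 1d, the lowest share of the 8 carriers, with 47.9, 56.6, 34.1 and 45.9 CPM at 1d against 227, 168, 162, 115 and 125 in NB. Slc7a10, a carrier of small neutral amino acids, Slc39a12, a zinc importer, and Slc13a3, a dicarboxylate carrier, were at 46.3%, 39.1% and 49.2% of NB at 1d. The mean of Slc37a2, a sugar phosphate exchanger, stood above NB at 3d, though 3 of the 4 3d libraries lay inside the NB range, with 33.2, 57.6, 34.2 and 33.1 CPM against 35.3, 23.02, 23.5, 15.1 and 19.9 in NB and 8.68, 10.9, 4.94 and 8.88 at 1d.

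Ion channel genes gave 7 members of 84 at 5 CPM or more, or 8.33% (Trpm3, Itpr1, Best2, Grik1, Gabrb1, Cacna1c and Gabra4), with symbols starting Kcn outside the rule. Trpm3, a cation channel of the melastatin family, read 2089.96, 946, 979, 691 and 815 CPM in NB, 580.4, 863 and 822 at 6h, 526, 519, 412 and 403 at 1d and 915, 1567, 1015 and 1072 at 3d. The highest NB value was that of NB A1, and the 6h values overlapped the other NB libraries. Itpr1, a calcium release channel of the endoplasmic reticulum, averaged 168 ± 65.1 CPM in NB and 61.98 ± 9.78 at 1d. Cacna1c, the pore of an L-type calcium channel, averaged 17.3 ± 5.39 and 5.29 ± 1.61 CPM, and Best2, a bestrophin channel known from the ciliary epithelium, 47.6 ± 12.9 and 22.3 ± 10.2 CPM. Best2 was not lower at 6h, at 40.7, 61.5 and 47.6 CPM.

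**Figure D2:**
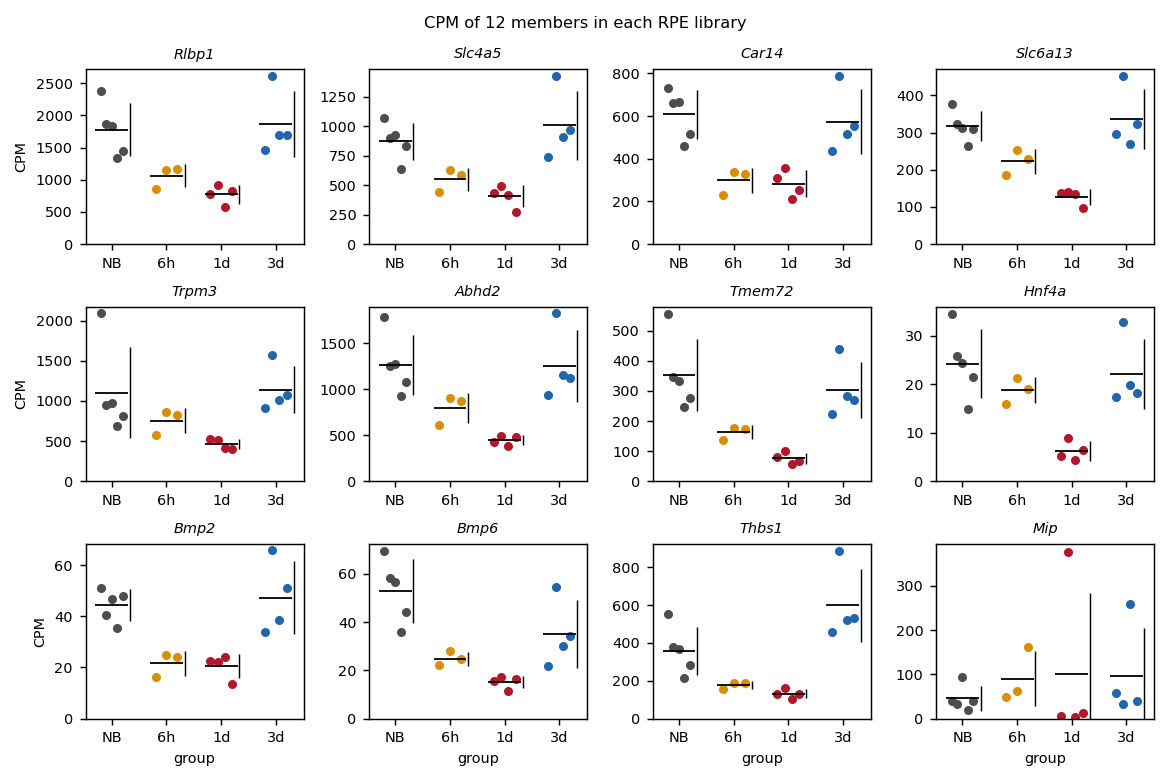
CPM (vertical axes, linear) of 12 members in each RPE library by group, with 1 point a library, horizontal bars for the mean and vertical bars for 1 SD, cut at 0 (n = 5, 3, 4 and 4). Most genes fall through 6h to 1d and return by 3d, with NB A1 and 3d 2 highest in most panels; Mip owes its 1d mean to the single value of 377 CPM.

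Secreted signals and their receptors followed the pattern to different depths. Bmp2 and Bmp6, ligands of the bone morphogenetic protein family, were 2 members of 88 growth factor genes at 5 CPM or more (2.27%). Bmp2 read 51.2, 40.7, 46.8, 35.3 and 47.7 CPM in NB, 16.1, 24.7 and 23.95 at 6h, 22.3, 22.1, 24.003 and 13.5 at 1d and 33.8, 65.7, 38.3 and 51.1 at 3d, so that 6h and 1d were alike in range. Bmp6 read 69.6, 58.5, 56.7, 35.7 and 44.4 CPM in NB, 22.2, 27.9 and 24.5 at 6h, 15.4, 17.1, 11.3 and 16.3 at 1d and 21.8, 54.6, 30.1 and 34.1 at 3d. Its 3d mean remained below NB, by 0.63 on the log2 scale, though the 3d and NB libraries overlapped. Thbs1, a matrix glycoprotein known to restrain vessel growth, had a 3d mean above that of NB. It read 552, 379, 366, 216 and 283 CPM in NB, 155, 188 and 190.00 at 6h, 128, 162, 104 and 129 at 1d and 458, 886, 520.1 and 535 at 3d, which put its 3d mean 0.76 above NB on the log2 scale, though 3 of the 4 3d libraries lay inside the NB range. Gip, the gene of an incretin hormone, was tight in NB at 21.5, 21.6, 21.3, 19.6 and 19.6 CPM and read 5.56, 9.70 and 8.88 at 6h, 7.89, 12.4, 4.32 and 5.87 at 1d and 15.5, 29.1, 17.7 and 18.5 at 3d. The receptors Fzd8, of the Wnt pathway, Vipr2, of vasoactive intestinal peptide, and Oxtr, of oxytocin, averaged 37.7 ± 6.67, 29.96 ± 7.03 and 29.4 ± 16.9 CPM in NB and 17.2 ± 1.08, 10.5 ± 3.60 and 11.8 ± 6.52 at 1d. Npvf, the precursor gene of RFamide peptides, ranged from 7.69 to 53.02 CPM at 1d and its 3d mean stood 0.54 above NB, with overlapping libraries.

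Other members code for enzymes, signalling proteins and factors. Abhd2, a lipid hydrolase, had the second highest NB level and read 1787, 1252, 1268, 929.96 and 1077 CPM in NB, 614, 908 and 873 at 6h, 429.99, 496, 379 and 483 at 1d and 931, 1823, 1148 and 1119.8 at 3d. Its 1d libraries lay below all others. Dusp4, a phosphatase of MAP kinases, differed in time course, with 36.97, 50.9 and 54.1 CPM at 6h, as low as the 53.01, 57.7, 36.6 and 59.2 at 1d, against 173, 99.003, 115, 88.3 and 108 in NB. Prkcq, a protein kinase C, and Plce1, a phospholipase C, averaged 141 ± 30.96 and 139 ± 53.4 CPM in NB and 60.95 ± 13.4 and 52.8 ± 5.35 at 1d. Hnf4a, a nuclear receptor best known from liver and chosen after its values were seen, was still near NB at 6h and low at 1d. It read 34.5, 25.9, 24.4, 14.9 and 21.5 CPM in NB, 15.99, 21.3 and 18.98 at 6h, 5.29, 8.92, 4.32 and 6.50 at 1d and 17.4, 32.9, 19.9 and 18.2 at 3d. Other abundant members were Tmem56, Appl2, an endosomal adaptor, Sesn3, a stress-induced sestrin, and Cdr2, at 383 ± 156, 363 ± 157, 322 ± 95.1 and 318 ± 62.96 CPM in NB and 101 ± 18.3, 158 ± 29.6, 151 ± 16.1 and 106 ± 27.96 at 1d.

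Falls of at least 2 on the log2 scale were seen in 7 members, and 4 of these were predicted loci or clone names. Tmem72, a membrane protein gene with no role given here, was the most abundant of the 7, with 555, 346, 334, 248 and 278 CPM in NB, 138, 178 and 175 at 6h, 79.99, 99.95, 57.04 and 68.1 at 1d and 223, 438, 282 and 270.2 at 3d. Its levels stepped down without overlap from NB to 6h and from 6h to 1d. The deepest fall was that of the predicted locus Gm33489, which read 7.05, 8.01, 7.22, 5.20 and 5.07 CPM in NB, 1.05, 1.71 and 2.30 at 6h, 1.03, 0.546, 0.232 and 0.317 at 1d and 2.47, 3.08, 2.17 and 2.38 at 3d. Its 3d libraries all remained below the NB libraries, the lowest return of all members (3d minus NB of -1.20). The 3d and NB libraries overlapped for 125 members. The exceptions were Gm33489, below NB as were 1.34% of all tested genes, and the clone D630024D03Rik, above NB as were 2.48%. At the other end, Myrip, Slc13a3 and Tet1 lay just inside the limit of the first step, with 1d minus NB of -1.01, -1.01 and -1.02, and Fam107a and Tmem132d just outside, at -0.996 each. Cfap54, Ankfn1 and Atrnl1 were just inside the second step, at 1.01 each, and Gtf2a1, Grk4 and Asic2 just outside, at 0.991 to 0.995. On NB level, Siglecf, Wfdc6a and Dock10 were just inside at 5.45 to 5.91 CPM, and Dgkb and R3hdml just outside at 4.44 to 4.87.

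The members Mip and Opn1sw are best known from other eye tissues. Mip, the water channel gene of lens fibres, read 6.39, 377, 3.70 and 12.6 CPM at 1d and 57.1, 32.2, 258 and 40.5 at 3d, and the lens crystallin genes Cryaa, Cryba1 and Crygs summed to 6669.5 CPM in the same 1d library (1d 2) and 9034 in the same 3d library (3d 3), against 586 to 2857 in the other 1d libraries. Since the rule averaged logs, Mip was a member although its mean CPM at 1d was 218% of NB. Opn1sw, the short wave cone opsin gene, ranged from 3.73 to 21.9 CPM at 1d and 11.04 to 84.1 at 3d in RPE libraries, and from 302 to 461 in NB retina. Neither gene passed the test at 6h.

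The 6h libraries had no part in choosing the members, although the NB libraries they were compared with had. By limma over all 16712 tested genes, 12 of the 127 members were called lower at 6h than in NB (adjusted p under 0.05), none was called higher and 115 did not pass. Of all tested genes, 0.652% were called lower and 0.808% higher. Among the 12 were Bmp2 (log2 difference -1.04 ± 0.22, adjusted p = 0.0378, SE), Bmp6 (-1.04 ± 0.25, adjusted p = 0.0493), Car14 (-1.02 ± 0.22, adjusted p = 0.0368) and Tmem72 (-1.06 ± 0.25, adjusted p = 0.0493). They also included Dusp4 (-1.27 ± 0.25, adjusted p = 0.0274), Gip (-1.35 ± 0.27, adjusted p = 0.0265), Nqo1, a quinone reductase of the NRF2 response (-0.55 ± 0.12, adjusted p = 0.0399), and Gm33489 (-1.70 ± 0.25, adjusted p = 0.00657). Olfml1, Wipf3, Arsg and Zan, the gene of a sperm protein, completed the 12. Without a test, 116 of the 127 members had a 6h mean between those of 1d and NB, 10 were above NB and 1 below 1d. The rule set 1d at least 1 below NB in every member, which by itself makes a 6h mean between them likely. The share over all genes was not counted. All 6h libraries lay below all NB libraries for 61 members (5.98% of all tested genes). The rule favoured genes that stood high in these NB libraries, which by itself pulls 6h minus NB down. This can raise both the 61 and the 12 calls above the shares of all genes, by an amount that was not measured. The median member had covered 42.1% of its log2 fall to 1d by 6h, a share built on the NB and 1d values that the rule used. The number of calls was fragile. It was 3 when CPM were rescaled to library totals, and 48 with DESeq2, and leaving out single libraries gave 0 to 19. It was 0 without 6h 1, 1 without 6h 3, NB B1 or NB B2, 3 without NB B4 and 19 without NB A1. NB A1 was the one NB library of like depth. Against it alone the median member stood at -1.13 and no member was called, but that reference is 1 library, so the lack of calls says nothing of the difference.

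Beside these calls, the other RPE markers had library medians of -0.80 to -0.29 at 6h in the RPE libraries. Rod markers summed to 5794 to 15769 CPM, against 4248 to 6842 in NB, and cone markers to 123 to 265, against 63.7 to 93.6. Leukocyte markers summed to 225 to 268 CPM, against 350 to 379 in NB, a sum that again includes Csf1r. The median log2 difference of the leukocyte markers from NB was -0.20 at 6h. Surface epithelium genes summed to 27612 CPM in 6h 1, where the members were lowest, and to 23313 and 16813 in 6h 2 and 6h 3. The part of these lists in the 6h values was not tested.

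**Figure D3:**
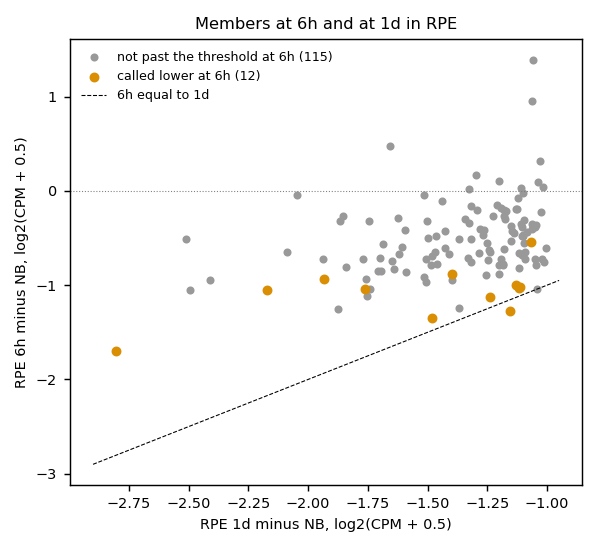
Difference from NB at 6h (vertical axis) against that at 1d (horizontal axis), both in log2(CPM + 0.5) of RPE, with 1 point a member. The 12 members called lower at 6h are coloured, and nearly all points lie above the dashed line on which the 6h and 1d differences are equal.

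The members were then followed in the retina, whose libraries the rule did not use. In NB the level of the 117 members with both values was higher in RPE than in retina for 83 (70.9%, against 44.7% of all 11674 genes at 5 CPM or more in RPE). It was at least 5 times higher for 46 (39.3%, against 11.1%). The median ratio of RPE to retina CPM was 3.42, against 0.88 for all these genes, and since the tables were normalized separately the ratios are a description.

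In retina the members did not fall as a body. At 1d 40 of the 117 were called lower than in NB and 18 higher, against 27.5% and 24% of all tested retina genes, with a median log2 difference of -0.15 (all genes -0.01). With CPM rescaled to library totals, which shifts the median of all genes by 0.15, the split was 28 lower and 39 higher. Between 1d and 3d 37 members were called higher and 4 lower, against 9.79% and 11.6% of all tested genes. At 3d 40 were called higher and 16 lower than in NB, against 19.3% and 23.9%, and with library totals (a shift of 0.12) 59 were higher and 11 lower. At 6h 27 were called higher and 15 lower, against 16.9% and 18.5%, and the RPE markers in the same libraries, 24 of 25 detected, were 13 higher and 1 lower, with summed levels of 1673 to 1927 CPM in NB and 2079 to 2589 at 6h. Without the retina library 6h 1 the calls of members at 6h were 15 higher and 12 lower. Of the 46 members at least 5 times higher in RPE, a split made after the values were seen, 12 were higher and 1 lower in retina at 6h, and of the other 71 members 15 were higher and 14 lower. Of all 1294 genes at least 5 times higher in RPE, 34.3% were higher and 1.47% lower in retina at 6h. At 1d the same 46 members were 5 higher and 12 lower, while 49.6% of the 1294 genes were higher and 4.71% lower. All RPE libraries lay below NB and all retina libraries above NB at 6h for 10 of the 117 members (8.55%, against 1.03% of all 15108 genes in both tables). In retina alone, all 6h libraries lay above all NB libraries for 16.1% of all tested genes. Whether RPE RNA in the retina libraries accounts for these calls was not tested. Rod markers summed to 68315 to 76098 CPM in NB retina, 41262 to 49897 at 6h, 22028 to 37819 at 1d and 36232 to 41987 at 3d. All 12 rod markers were called lower at 1d. Cone markers, which include Opn1sw, summed to 1370 to 1433 CPM in NB retina and 585 to 817 at 1d. The part of these lists in the retinal differences of the members was not tested.

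**Figure D4:**
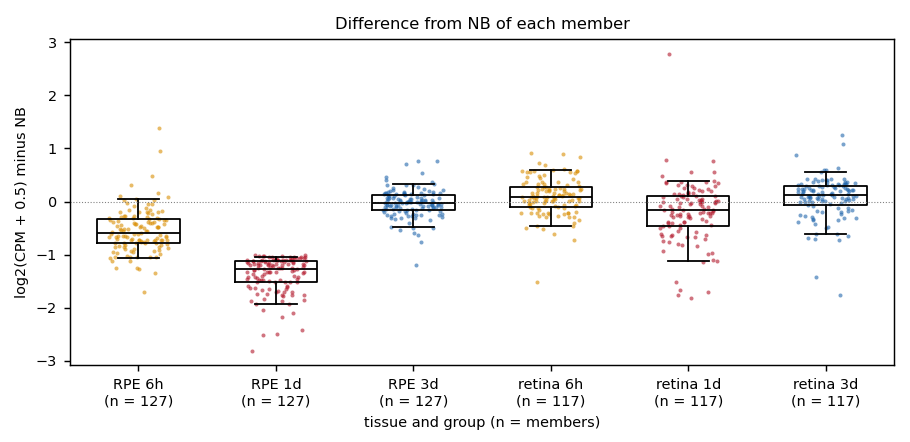
Difference from NB in log2(CPM + 0.5) (vertical axis) of each member (points) at 6h, 1d and 3d in RPE (n = 127) and retina (n = 117), with boxes for the quartiles, a line for the median and whiskers to the 5th and 95th percentiles. In RPE the medians are -0.59, -1.27 and -0.02, and in retina 0.09, -0.15 and 0.12.

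A fall at 1d with a rise by 3d passed the test in retina for 26 of the 117 members (22.2%, against 6.77% of all tested genes). The 26 were counted under the main scaling only. Only some of the 26 were followed singly with libraries left out. Among those, Csad, Olfml1, Myrip and Tmem56 lost a needed call without some single libraries. Rlbp1 was among the 26, with retinal CPM of 413 to 539 (median 497) in NB, 392, 409, 362 and 337 at 1d and 672, 629.6, 645 and 642 at 3d. It was lower than NB at 1d (log2 difference -0.36 ± 0.07, adjusted p = 2.31e-04, limma) and higher at 3d than at 1d (0.79 ± 0.08, adjusted p = 3.25e-07). Rrh fell by more (-0.79 ± 0.06, adjusted p = 4.82e-09), from 36.8 to 41.7 (median 40.5) to 20.1, 25.4, 22.9 and 23.5 CPM, and read 46.4, 51.1, 50.8 and 51.5 at 3d. Car14 (-0.38 ± 0.08, adjusted p = 3.98e-04) and Tmem72 (-1.14 ± 0.17, adjusted p = 1.73e-05) fell as well. The 8 Muller glia markers, which include Rlbp1 and Car14, summed to 4736 to 5336 CPM in NB retina, 2667 to 3037 at 1d and 5946 to 6403 at 3d. Their part in the retinal values of Rlbp1 and Car14 was not tested.

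Ccdc39 and Cfap54, genes of the motile cilium axoneme, were lower in retina at 1d (-0.83 ± 0.07, adjusted p = 1.41e-08, and -0.99 ± 0.09, adjusted p = 2.23e-08) and higher again at 3d. Retinal Ccdc39 read 39.9 to 49.4 (median 45.7) CPM in NB and 21.8, 29.9, 25.6 and 23.7 at 1d. In RPE it read only 13.9, 6.34, 7.22, 4.11 and 5.45 CPM in NB and 3.87, 1.73, 3.63 and 1.35 at 1d. Opn1sw also fell in retina (-1.81 ± 0.18, adjusted p = 8.26e-08). The lower calls with the smallest adjusted p also held Myrip, which links melanosomes to actin in RPE (-0.66 ± 0.05, adjusted p = 7.63e-10), Omg, a myelin glycoprotein gene (-0.71 ± 0.06, adjusted p = 8.50e-09), Gzmm, a granzyme gene, and Gm534. Zan, Opn1sw and Gm534 met the full rule in both tissues. These 3 are 2.36% of the 127 RPE members, of which 10 had no retina value and could not meet it there. With the same names left out, 127 of the 16714 genes of the RPE table and 40 of the 16930 of the retina table met the rule. The 3 are 7.5% of those 40.

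Some members went the opposite way in retina at 1d. Endou, an endoribonuclease gene, rose there from 1.01 to 2.25 (median 1.44) CPM in NB to 18.2, 12.4, 8.11 and 13.99 at 1d and read 4.58, 3.80, 2.72 and 3.52 at 3d (2.77 ± 0.20, adjusted p = 9.21e-10). In RPE the same gene read 19.3, 14.7, 14.7, 7.38 and 10.98 CPM in NB and 6.31, 7.83, 3.09 and 3.73 at 1d. Plce1 (0.78 ± 0.06, adjusted p = 2.30e-09) and Limch1 (0.37 ± 0.04, adjusted p = 5.53e-07) rose in retina. So did the kainate receptor gene Grik1 (0.49 ± 0.06, adjusted p = 7.41e-07) and Nr2e1, a nuclear receptor gene of neural progenitors (0.55 ± 0.09, adjusted p = 2.19e-05). Slc37a2 was also called higher, and so was Abhd2, which did not pass without NB A1, A2 or B1 or without 1d 1, 2 or 3 (adjusted p = 0.0611 to 0.104). The difference between the tissues was not tested for these genes, nor was the part of the lower rod and cone marker sums in retina at 1d. Thbs1 did not pass at 1d in retina (-0.26 ± 0.13, adjusted p = 0.0956) and stood above NB at 3d (0.88 ± 0.13, adjusted p = 2.29e-05), as its mean did in RPE. Slc4a5 and Slc6a13 passed none of the 4 retinal comparisons, and Hnf4a, Gip and Gm33489 were among the 10 members with no value in the retina table.

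**Figure D5:**
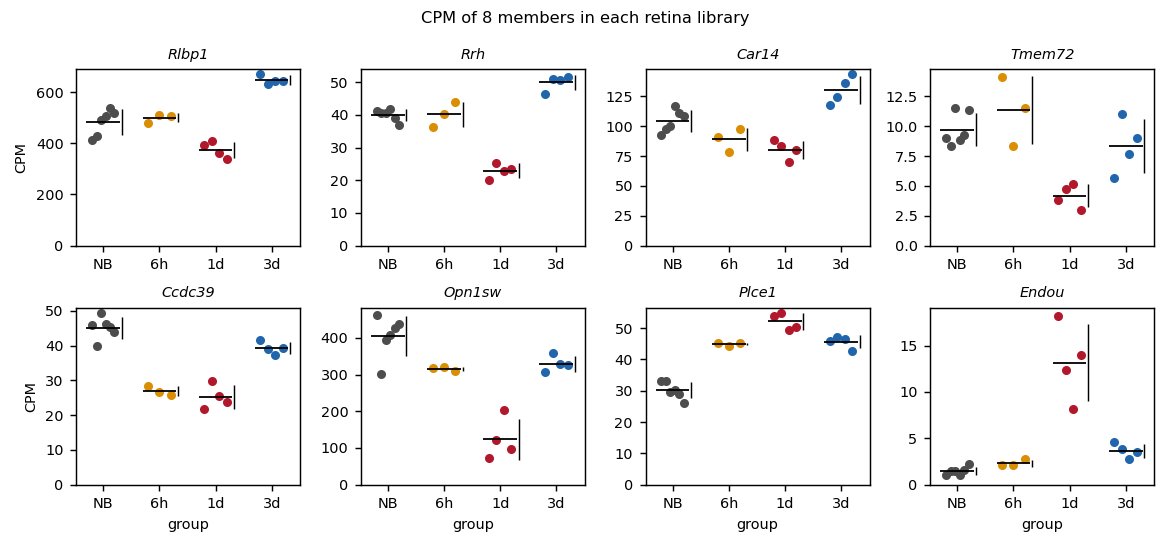
CPM (vertical axes, linear) of 8 members in each retina library by group, with 1 point a library, horizontal bars for the mean and vertical bars for 1 SD (n = 6, 3, 4 and 4). Rlbp1, Rrh, Car14, Tmem72, Ccdc39 and Opn1sw are lowest at 1d, while Plce1 and Endou are highest there.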

How the data were processed

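RNA libraries (33) of retina and RPE were analysed, and 34 ATAC samples were not used here. The submitters' processing notes name Trimmomatic, STAR and edgeR and the GRCm38 build, per the labels; versions and the read counter are not given in the sources used here. The deposited signal values are CPM scaled by the authors to effective library sizes, with retina and RPE normalized separately, so column sums differ. All values were whole multiples of 1 read within 0.01 of a read, which gave the depth. The deposited log2 fold changes and p-values of the authors were used only for the counts from their tables in the closing section. NB columns repeat numbers and were matched to the group; the letters A and B were assigned here. Each library is 1 mouse, both eyes pooled.

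Members were chosen on log2(CPM + 0.5), and members, gene lists and naming rules were all chosen with earlier results of these data known. The named genes led the members by NB level, by size of change, by retinal adjusted p or within a functional list; others are said to be chosen later. Tests used limma 3.58.1 in R 4.3.3 on log2(CPM + 0.5) with a variance trend, 1 fit of 4 groups per tissue, for genes at 1 CPM or more in at least 3 libraries (16712 in RPE, 16926 in retina), with Benjamini-Hochberg adjustment and a threshold of 0.05. Errors are SD for CPM and SE for log2 differences, and the added 0.5 understates changes of low genes. The test was tried on simulated data. Alternatives covered the pseudocount, the filter, scaling, edgeR 4.0.16 and DESeq2 1.42.0 on the recovered reads, the groups in the fit, depth sets, a replicate block and leaving out libraries. A few genes are not reported here. Promoters were the RefSeq table's.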

Additional observations from a re-analysis of the deposited data

Results flagged for a closer look

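In 171 groups of 4 or 5 RPE libraries, a single library was set far from the others in 16. The groups covered 54 of the genes named above and the list levels. Chance flags about 1 in 20 of independent groups, but these share the same libraries and are not independent. The 3d 2 library stood high in 5 of them, with Rrh at 381 CPM (next 244), Slc37a2 at 57.6 (next 34.2), Hnf4a at 32.9 (next 19.9), Zan at 11.2 (next 7.81) and Limch1 at 115 (next 82.5). NB A1 stood high for Trpm3, at 2089.96 CPM (next 979), and for Gm534, Grik1, Tmem56 and Appl2, at 89.9 (next 46.8), 76.4 (next 39.2), 652 (next 357) and 631 CPM (next 339.7). NB B3 was low for Best2, at 25.2 CPM (next 48.9), and 1d 4 for Slc6a13, at 95.96 (next 136).

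The lens gene Mip stood apart in 3 groups, at 94.4 CPM in NB B2 (next 40.5), 377 in 1d 2 (next 12.6) and 258 in 3d 3 (next 57.1). Gm534 was also high in 1d 2, at 14.8 CPM (next 6.82).

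At 6h every RPE library lay below every NB library, and every retina library above every NB library, for 4 named members of the 10 members with this pattern (1.03% of all 15108 genes in both tables show it), and this difference between the tissues was not tested. The 6h minus NB log2 difference was -0.82 in RPE and 0.69 in retina for Slc7a10, -0.67 and 0.37 for Cacna1c, -0.65 and 0.55 for Abhd2, and -0.59 and 0.33 for Cdr2.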

How the results depend on the processing

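The number of members followed the size of the step, at 298 with steps of 0.75 and 48 with steps larger than the main ones by 0.25. It was 90 to 165 under other pseudocounts, scalings and level minima, and 94 to 167 when 1 library was left out (101, of which 99 shared, without NB A1). Without single libraries the median 1d minus NB lay between -1.39 and -1.15 and the median 3d minus NB between -0.17 and 0.11; these medians were added after seeing the data. Calls at 6h in RPE depended most on the processing. Against the main 12 there were 3 at library totals, 48 with DESeq2, 20 when NB and 6h were fitted alone, and 0 to 19 without single libraries (0 without 6h 1, 1 without 6h 3, NB B1 or NB B2, 3 without NB B4). Against NB A1 alone there were 0, but that arm is 1 library, and the median member stood lower (-1.13, against -0.59). Retinal calls at 6h were 27 to 41 without single libraries, the lowest without 6h 1, against 42. The cause was not tested. For the called ones of 54 genes of the text that were followed singly, 2216 alternative values were obtained. Of these, 245 no longer passed, 80 of them RPE 6h, and 1 reversed. That was retinal Tet1 at 1d, from -0.16 to 0.00799 with library totals. Other settings moved no retinal count by more than 1.5 times, and in the authors' deposited tables, adjusted here, 0 members were called in RPE at 6h (2 lower and 7 higher of all genes) and 16 lower and 3 higher in retina at 1d (4.90% and 5.97% of all genes).

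Of the comparisons tested here only retina 3d against 1d has numbered libraries in both groups, and a replicate block gave 32 calls, against 37 with those groups fitted alone. Same-numbered 1d and 3d libraries correlated by -0.32, 0.23, -0.24 and 0.18 in retina and by -0.041, 0.16, 0.093 and 0.13 in RPE, where those groups chose the members and were not tested, so the numbers were not taken to pair the samples. Library totals moved the median of all retina genes by 0.15 at 1d and 0.12 at 3d. Depth, library composition and group could not be separated for 6h.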
